A study of Drosophila melanogaster with 4 samples.

Results

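The achaete-scute complex is a group of 4 neighbouring genes near the tip of the fly X chromosome, achaete (ac), scute (sc), lethal of scute (l(1)sc) and asense (ase). Trimethylation of histone H3 at lysine 4 (H3K4me3), a modification of nucleosomes near the start of active genes, was examined there in embryos aged 8 to 16 h. The H3K4me3 peaks of the complex were chosen by position, as the peaks of the deposited list that overlap X 255000 to 360000 of FlyBase release 5. This window holds the 4 genes and was chosen with earlier results of these data known. Of 7425 peaks in all and 1189 on X, 1 lay in this window.

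The genes of the complex encode transcription factors of the basic helix-loop-helix class. The proneural genes ac, sc and l(1)sc give small clusters of ectodermal cells the ability to become neural precursors, from which Notch signalling singles out neuroblasts and sense organ precursors. The fourth gene, ase, is expressed in the precursors themselves after they have been chosen. Widely spaced enhancers between the genes drive these patterns, and the intervals between the coding genes are long.

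The series holds 2 H3K4me3 ChIP libraries, made with a rabbit polyclonal antibody, and 2 libraries of input DNA. All 4 came from whole embryos of the strain labelled Y cn bw sp, fixed in 1.8% formaldehyde for 15 min. The labels give the genotype as y[1] and oc[R3.2] on X. For the second chromosome they give the markers cn[1], bw[1] and sp[1] together with CG33964[R4.2] and the gustatory receptor alleles Gr22d[1] and Gr22b[1]. For the third they give lab[R4.2] and LysC[1], with Rh6[1], GstD5[1] and MstProx[1]. The y gene, whose product is needed for black pigment of the cuticle, is the neighbour of ac, so both ChIP and input chromatin carried a marker allele beside the complex. The deposited outcome is 1 peak list for the whole series. It names no library, so no value below has a replicate error, and the depth of the libraries is unknown.

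Gene positions came from a table of release 6, and 105967 bp were subtracted from them to place the genes on the list. The peak list itself was used to check this constant. Constants from -100000 to 300000 bp were tried in steps of 500 bp, and the share of protein-coding genes with an end inside a peak was counted in 1 Mb blocks of X. Of 24 blocks, the 20 nearest the tip were kept because the best constant of each lay near the one used. These best constants lay between 105000 and 107000 bp, and their agreement follows from this choice. The blocks beyond them gave best constants of 33000, 127000, 299000 and -100000 bp and were left out. The first of the 20 blocks, which holds the complex, gave 106500 bp. Over the 1999 protein-coding genes of these 20 Mb, called the distal X below, 38.2% had an end inside a peak at the constant used and up to 47.0% within 1000 bp of it. At constants 10 kb or more away the share had a median of 21.8% and a maximum of 25.6%. The names of 4 genes in the table carry older positions, among them CG43181 beside y, and these differ from the release 6 positions by 105908 to 106010 bp.

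**Figure D1:**
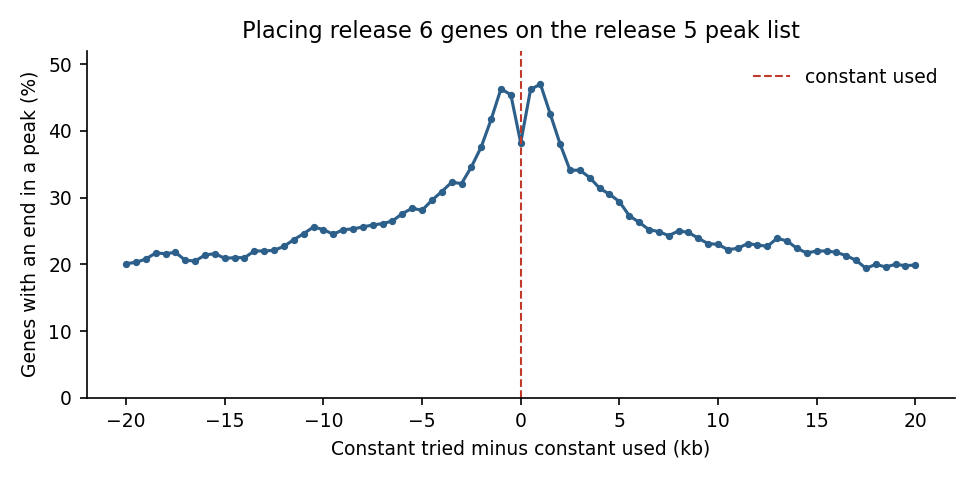
Share of the 1999 protein-coding genes of the distal X that have an end inside an H3K4me3 peak (y axis, %), for constants around the one used (x axis, kb from it). The curve has a maximum on either side of the dashed line, 46.3% at 1000 bp below and 47.0% at 1000 bp above, with 38.2% on the line itself.

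Of the 4 genes, ase alone had an H3K4me3 peak within 500 bp of an end of the gene, and ac, sc and l(1)sc lay in a stretch with no peak. The gene table gives no strand, so the start of a gene could not be told from its end, and both ends were used. On the distal X 58.1% of protein-coding genes had a peak within 500 bp of an end. Among the 716 of these genes that were as short as the 4, with spans of 917 to 2430 bp, the share was 57.5%. The count of 1 in 4 is too small to be set against these shares.

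The gene ac was the farthest from the mark. The nearest peaks lay 90.4 kb away on the side of the tip and 90.1 kb away on the other side, so that ac sat in the middle of the unmarked stretch. Of the 1999 genes 23, or 1.15%, were as far from a peak. The 23 genes lay in 10 separate stretches.

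The gene sc, which also acts in counting X chromosomes for sex determination in the early embryo, lay 26.0 kb beyond ac, measured between the first bases of the spans. Its nearest peaks were 116.4 kb away towards the tip and 63.6 kb away on the other side. As far or farther from a peak were 79 genes, or 3.95%. The gene l(1)sc, which acts in the formation of neuroblasts, lay 39.7 kb beyond ac by the same measure, with the nearest peaks 130.1 kb and 50.2 kb away. As far or farther were 122 genes, or 6.10%, in 30 stretches. All 3 distances are measured across 1 stretch and to the same pair of bordering peaks, so they are 1 observation and not 3.

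**Figure D2:**
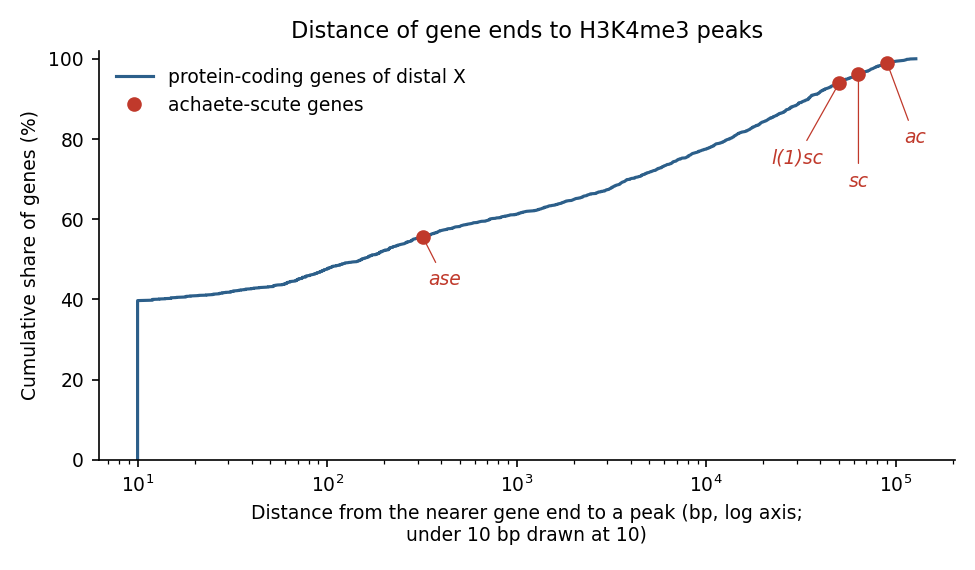
Cumulative share of the protein-coding genes of the distal X (y axis, %) by the distance from the nearer end of the gene to the nearest H3K4me3 peak (x axis, bp on a log scale, distances under 10 bp drawn at 10). The points of l(1)sc, sc and ac lie at 50.2, 63.6 and 90.1 kb at the upper end of the curve, and ase lies at 0.3 kb.

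The peak at ase covered X 355100 to 356348, was 1249 bp wide and had a score of 18.28. Each score was set by the authors' peak caller on a scale not given in the sources used here, and scores are compared only between peaks of the list. The peak lay wholly within the gene, from 320 bp after the first base of its span to 861 bp before the last, and covered 51.4% of the span. It also lay within the span of CG32816, a gene of 154151 bp that runs across the whole complex, but 8411 bp or more from either end of that gene. Span alone does not assign the peak to ase rather than to CG32816.

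For its width the ase peak scored low. Of 214 peaks on X at least 1000 and under 1500 bp wide, 6, or 2.80%, scored 18.28 or less, and the ase peak is 1 of these. Their median score was 111.6, with quartiles of 72.7 and 188.0 and a lowest score of 14.38. Among the 604 peaks of X as wide as the ase peak or wider, 2 scored no more than it, counting the peak itself. Without regard to width its score was not rare, since 24.9% of X peaks and 24.3% of all peaks scored 18.28 or less. It lay just under the lower quartile of the list, 19.04, and above the score of 11.05 of the single mitochondrial peak. The caller derived both the width and the score from the same reads, so the pair is not 2 independent readings.

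**Figure D3:**
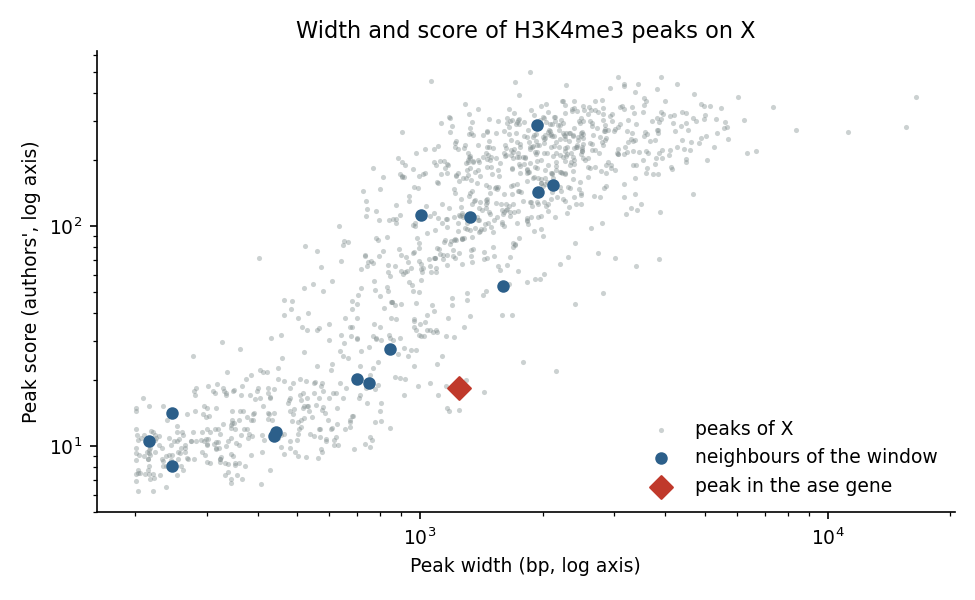
Score (y axis, log scale) against width in bp (x axis, log scale) of the 1189 H3K4me3 peaks of X. The diamond is the peak in ase, at 1249 bp and 18.28, below nearly all peaks of its width, and the large points are 14 peaks outside the window, the first 2 met towards the tip and the first 12 met away from it.

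The peak was also isolated. The next peak away from the tip began after 12397 bp, and the next towards the tip ended 181449 bp before it. On X 88 peaks, or 7.40%, had no neighbour closer than 12397 bp, the ase peak included. Their scores ran from 7.10 to 501.38 with a median of 72.3, and 19 of them scored 18.28 or less. The ase peak thus lay in the lower part of the isolated peaks as well. At marked gene ends of the distal X the nearest peak had a median score of 185.0, and for 69 of the 1162 marked genes, or 5.94%, it scored 18.28 or less.

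The stretch without a peak ran from X 173651 to 355099, over 181449 bp, and took up 100100 bp or 95.3% of the window. It was the 19th longest of 1188 intervals between neighbouring peaks on X, whose median was 1608 bp, and the 73rd of 6633 on the 5 large arms. The longest on X had 333582 bp. Wholly inside the stretch lay 11 protein-coding genes and 4 genes of long noncoding RNA. In the 13 intervals of the distal X that were as long or longer, this one included, the number of protein-coding genes inside was between 5 and 24, with a median of 11. By this choice the stretch of the achaete-scute genes was the shortest of these 13. It ranked 13th by length of 1116 intervals of the distal X. Its gene number was at the median of the 13.

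A gene wholly inside the stretch could be marked only by a peak at its borders, so a low count there follows from how the stretch was defined. On the distal X as a whole 58.1% of protein-coding genes had a peak within 500 bp of an end. Of the 11 protein-coding genes inside the stretch, 10 had no such peak. Besides ac, sc and l(1)sc these were y at 76.9 kb from a peak, CG43181 at 70.9 kb, CG43182 at 73.4 kb, the odorant receptor gene Or1a at 35.5 kb, CG12470 at 28.1 kb, Pgcl at 23.6 kb and CG13375 at 3.6 kb. Pgcl is the only other protein-coding gene between l(1)sc and ase apart from the long CG32816. The exception was CG3777, an end of which lay 0.1 kb from the peak that borders the stretch. The 4 noncoding RNA genes were lncRNA:yar, between y and ac, and lncRNA:CR44751, lncRNA:CR44752 and lncRNA:CR44753, between ac and sc. Their distances from a peak were 82.8, 83.4, 74.8 and 67.8 kb in that order. No gene between y and l(1)sc, coding or noncoding, thus had a peak within 50 kb of an end, apart from CG32816, whose ends lie outside that interval. This follows from the place of these genes in the stretch and is not a separate result.

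**Figure D4:**
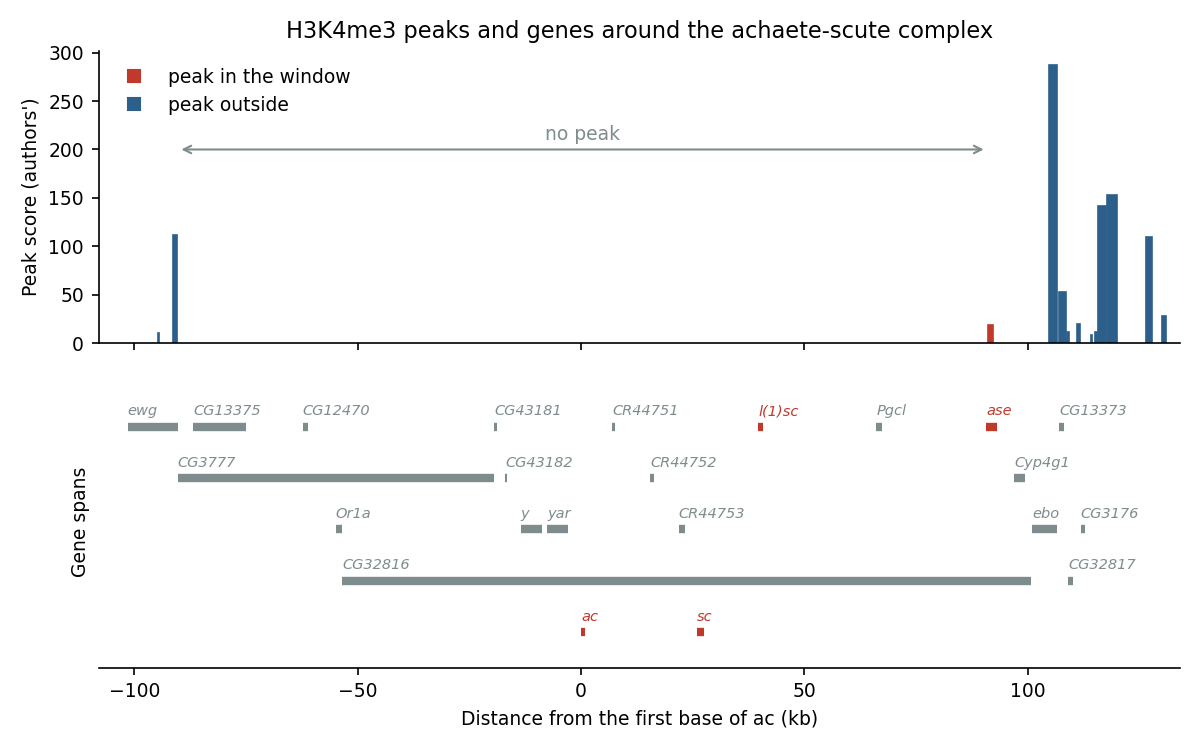
H3K4me3 peaks (upper panel, height is the authors' score) and spans of protein-coding and long noncoding RNA genes (lower panel) by distance in kb from the first base of ac. The 4 genes of the complex are in red. The red peak of score 18.28 lies in ase, and no peak lies between it and the peak of score 111.64 on the left.

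The peaks outside the window showed where the mark was called again. Towards the tip the stretch ended at a peak of 1008 bp at X 172643 to 173650, with a score of 111.64. It lay within the span of ewg, which encodes a transcription factor of neurons and muscle, 0.1 kb from one of its ends and equally near CG3777. On the other side Cyp4g1, which encodes a cytochrome P450 of oenocytes, had no peak within 4.7 kb of its ends. The first peak beyond it, at X 368746 to 370677, was 1932 bp wide, scored 287.58 and covered an end of ebo, an exportin gene.

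The achaete-scute window had fewer peaks than both of its neighbours of equal size. It held 1 peak and 1249 covered bp, or 1.19% of its length. The next window towards the tip held 6 peaks, 2826 covered bp and a highest score of 116.64. The same unmarked stretch took up 81349 bp of that window, and its 6 peaks had a median score of 9.95 and a median width of 370 bp. The next window away from the tip held 16 peaks, 17424 covered bp and a highest score of 287.58. Its 16 peaks had a median score of 23.87 and a median width of 799 bp. The edge away from the tip was thus near a region dense in peaks, though many of these scored low.

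Set among all windows of its size on X, the window was rare neither by number of peaks nor by covered length. Windows of 105001 bp were laid along X in steps of 1 kb, which gave 22288 overlapping windows. Of these, 28.5% held 1 peak or none, 24.9% had as little covered length and 19.9% had an unmarked stretch as long as the 100100 bp inside the window. The median window held 5 peaks and 6402 covered bp. By highest score the window was rare. Among the 18416 windows with a peak the highest score had a median of 270.6, and in 540, or 2.93%, it was 18.28 or less. Of the 2480 windows that held exactly 1 peak, 522, or 21.0%, had a peak scoring 18.28 or less. The low score was thus not rare among windows with 1 peak.

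The window also held few genes. The midpoints of 6 protein-coding genes lay in it, against a median of 10 in the windows of the distal X, and 27.5% of those windows had 6 or fewer. In the 1080 windows with exactly 6 genes the number of peaks was between 0 and 10, with a median of 3, and 31.9% had 1 peak or none. The part of gene number in the low count was not tested.

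**Figure D5:**
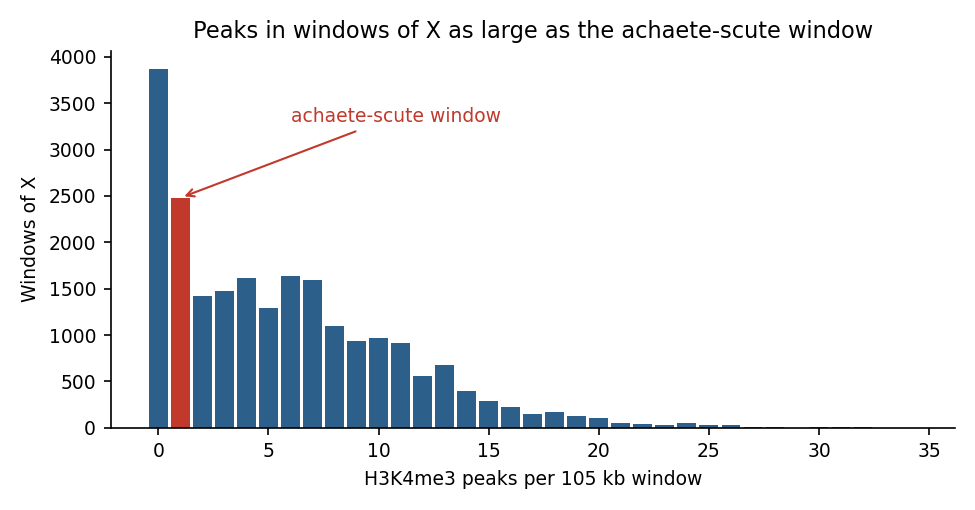
Number of windows of X (y axis) by the number of H3K4me3 peaks in each (x axis), for 22288 overlapping windows of 105 kb. The red bar marks windows with 1 peak, as in the achaete-scute window, and 3872 windows had none.

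Genes of neural tissue and of signalling were looked up elsewhere on the distal X. In a list of 8 genes of mixed roles, drawn up for the nervous system and Notch signalling, 7 had a peak within 500 bp of an end, with a median distance of 82 bp, beside 58.1% and a median of 152 bp for all 1999 genes. Of these 8, N and kirre rest on the same peak, and ewg rests on the peak of score 111.64 that borders the unmarked stretch. The spans of the 8 genes ran from 11210 to 394149 bp, longer than those of the achaete-scute genes. The gene elav, which encodes an RNA-binding protein of all neurons, had a peak of score 285.44 over an end, and sgg, which encodes a kinase of Wnt signalling, one of score 263.19. At N, the Notch receptor gene, the nearest peak scored 72.67, and this peak was also the nearest to kirre, the neighbouring adhesion gene of muscle founder cells. At rst, which is related to kirre, the peak scored 79.31, and at Appl, the fly relative of the amyloid precursor gene, 14.80. The exception was vnd, a homeobox gene that patterns the ventral neuroectoderm in which ac, sc and l(1)sc are expressed, whose nearer end was 17.9 kb from a peak.

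In a list of 8 genes of general cell function, all 8 were marked, beside 58.1% of all 1999 genes. Their scores were between 143.19 at arm, the fly beta-catenin, and 440.42 at Actn, which encodes alpha-actinin, and RpL36, a ribosomal protein gene of 1146 bp, close in length to l(1)sc, had a score of 314.56. In a list of 6 genes of cuticle, eye or sense organs, 2 were marked, the transcription factor gene z at 288.66 and the odorant receptor gene Or2a at 14.12. The eye pigment gene w was 0.7 kb from a peak, the taste receptor gene Gr2a 5.2 kb, and y and Or1a lay in the stretch of the achaete-scute genes. The lists, that of the nervous system and Notch signalling included, were chosen with earlier results of these data known. No difference between these lists, or between a list and the share over all genes, was tested.

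A peak list from whole embryos cannot tell a mark in a few cells from a low level in many, nor show a mark below the authors' threshold. Unmarked therefore means that no peak was called. How many reads could be mapped within the stretch was not examined.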

How the data were processed

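H3K4me3 was profiled by ChIP-seq in 2 ChIP and 2 input libraries. Per the submitters' processing notes, the tools were MACS2, BWA and CASAVA (versions 1.7.0.2 and 1.7.0.3), and the build was BDGP5. Their settings and order are not given in the sources used here. The deposited list, on FlyBase release 5 per the file headers, gives each peak a start, an end and a score, whose scale is not given. How libraries were combined is not given either.

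Peaks were counted in a fixed window and in sliding windows of equal size. Gene spans of RefSeq on release 6 were moved by a constant checked on the list. The planned use of gene starts was replaced by both ends of a gene, since the table has no strand. A gene was called marked when a peak lay within 500 bp of an end. Ranks among windows, intervals and genes are descriptions without p-values, since the list has no replicates. The window, the 4 genes and the gene lists were chosen with earlier results of these data known. Named are the 4 genes, the genes of the window, of the unmarked stretch around it and of its borders, and the lists; those of the stretch outside the window, ebo and the peaks quoted outside the window were added after their values were seen. Sequences of the genes were not used here. Python 3.11.15, numpy 2.4.6, pandas 2.3.3 and matplotlib 3.10.9 were used, and the measures were tested on simulated data. Alternatives were higher score thresholds, merged peaks, other windows and other distances.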

Additional observations from a re-analysis of the deposited data

How the results depend on the processing

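No paired analysis was possible because the peaks carry no library name, and no replicate could be left out. The ase peak is the weak point: at a score threshold that removes the lowest 25% or 50% of the list the window held 0 peaks and 0 of the 4 genes were marked, against 56.0% and 48.2% of all genes at these thresholds, and the unmarked stretch was 195095 bp, against 181449 bp as deposited. With a peak required over an end of the gene itself (0 bp) 0 of 4 were marked, against 38.2% of all genes. The window held 1 peak as deposited, 0 when moved 20 kb towards the tip and 8 when moved 20 kb away from it. The share of windows with as few peaks, 28.5% as deposited, was 30.5% for windows laid end to end. It was 24.6% on the 5 large arms, 24.6% on the distal X alone and 32.9% after merging peaks closer than 1000 bp. Without the lowest 25% by score the window held 0 peaks, and 19.8% of windows had 0, against 17.4% with 0 as deposited. The other alternatives, among them a constant 500 bp larger or smaller, left 1 peak and 1 marked gene. Of all genes, 54.4% were marked with the larger constant and 53.9% with the smaller. The share was 61.2% for a peak within 1000 bp of an end and 54.7% for a peak over any part of the span. The moved windows, the distal windows, the changed constants, the span in place of the ends, and the 50% threshold for genes were chosen after seeing the data.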
